A study of Mus musculus with 10 samples.

Results

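*Klf1*, *Gata1*, *Alas2*, *Rhag*, *Hemgn*, *Trim58*, *Slfn14*, *Epor* and *Slc4a1* are 9 genes of the red blood cell lineage, taken by name from a table of 23195 genes measured in the embryonic mouse heart. They were chosen by their group means, known to be higher in the null hearts, so their difference between the genotypes is given below as a description, without a test. Hearts were dissected at embryonic day 13.5 from 5 wild-type males and 5 males homozygous for the *Nos1ap* constitutive null allele, tm1d, and polyA RNA was sequenced from each. The tm1d allele lacks exon 4 in all cells, derives from a floxed allele by crosses to mice with CMV-Cre, and was kept on the C57BL/6J background, while the labels give the strain of all samples as C57BL6/J. *Nos1ap* encodes an adaptor protein that binds neuronal nitric oxide synthase, and the hearts were profiled to look for expression changes at a stage before most null animals are lost.

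Red blood cells arise from progenitors that switch on a shared gene program under the transcription factors GATA1 and KLF1. Erythropoietin, acting through its receptor, keeps these cells alive, while they fill with heme and hemoglobin and build a membrane held up by a spectrin skeleton. The heart is not a site where red cells are made in bulk, but its chambers and vessels hold blood, and at this stage of gestation that blood still contains nucleated red cells of yolk sac origin, which carry erythroid mRNA. In bulk tissue, a difference in the amount of blood cells and a difference in mRNA per blood cell cannot be told apart.

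The values are normalized counts, that is, the read pairs counted for a gene, scaled by a size factor to correct for sequencing depth. The deposited table gives the mean of each group, and the counts of single libraries were derived here from the digits of these means. Counts in all 10 libraries were recovered for 7 of the 9 genes, each with 1 possible set of counts per group. *Alas2* and *Slc4a1* exceed the limit of 1000 normalized counts above which no set was searched, and have group means alone. Libraries are numbered 1 to 5 within a group by descending size factor, which is not the replicate number of the labels. An estimated 11328000 to 14023000 read pairs per library fell on genes. *Nos1ap* itself, at chr1:170302668-170589861, had 126 to 161 normalized counts in the wild-type libraries and 31.1 to 44.4 in the null libraries, and these ranges do not overlap (limma, log2 difference -1.83, adjusted *P* = 1.14e-08).

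One library stands apart. Null library 2 had the highest value of all 10 libraries for 7 of the 7 genes with recovered counts, whereas it was the highest for 13.3% of the 11311 genes with recovered counts and a mean of at least 10. The genes were chosen by their null means, which include this library, so this share is given as a description, not as a test. The summed normalized count of the 7 genes was 824 in null library 2, and 91.0 to 241 in the other 9 libraries. Its size factor of 0.994 lies between those of the other null libraries (0.918 to 1.11), and its *Nos1ap* value of 42.2 lies within the range of the other null libraries. Differences between the groups that rest on recovered counts are therefore given with and without this library.

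The sequences just before the RefSeq starts of these genes are shown because the genes vary together across libraries and because the motifs of GATA1 and KLF1, both among them, are short enough to be seen by eye. RefSeq promoter windows on GRCm38.p6 were found for 8 of the 9 genes, and the 250 bases before the start were searched on both strands. The windows of *Gata1* and *Hemgn* lie inside the gene as annotated in GENCODE M21, downstream of its outermost start. The GATA motif had the 4 spellings AGATAA with its variant AGATAG, then TGATAA with its variant TGATAG, while the KLF1 motif was CCNCNCCC, where N is any base. The stretches below run 5′ to 3′ on the strand of the gene, from base 130 before the RefSeq start to the last base before any exon of the gene annotated in GENCODE M21. *Epor* is the only one of the 8 whose RefSeq start was not matched to a GENCODE M21 transcript, and that start lies outside the annotated gene. Capitals mark a match to either motif, on either strand, where TTATCA, just like TTATCT, is a GATA motif read from the other strand.

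Gata1, chrX:7967911-7968040, minus strand: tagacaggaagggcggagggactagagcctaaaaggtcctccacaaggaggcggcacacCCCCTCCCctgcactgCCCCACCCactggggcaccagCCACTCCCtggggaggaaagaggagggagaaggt
Klf1, chr8:84901852-84901927, plus strand: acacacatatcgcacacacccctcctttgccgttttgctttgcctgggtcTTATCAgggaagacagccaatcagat
Epor, chr9:21963577-21963706, minus strand: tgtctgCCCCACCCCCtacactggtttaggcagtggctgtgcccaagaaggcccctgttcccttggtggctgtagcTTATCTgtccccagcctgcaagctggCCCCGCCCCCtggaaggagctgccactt
Alas2, chrX:150547287-150547374, plus strand: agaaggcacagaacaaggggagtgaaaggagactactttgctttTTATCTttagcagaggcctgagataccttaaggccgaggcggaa
Rhag, chr17:40811019-40811125, plus strand: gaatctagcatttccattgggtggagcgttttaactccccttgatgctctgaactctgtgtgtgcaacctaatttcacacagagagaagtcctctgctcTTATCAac
Slfn14, chr11:83286727-83286856, minus strand: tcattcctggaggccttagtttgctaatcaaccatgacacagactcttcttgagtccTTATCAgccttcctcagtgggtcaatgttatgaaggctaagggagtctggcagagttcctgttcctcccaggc

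A GATA motif was present in 7 of the 8 windows, against 26.5% of all 32851 windows of this length in the RefSeq table. None of the 8 held more than 1, while 6.40% of all windows held 2 or more. It lay 80 to 75 bases before the start in *Klf1*, 54 to 49 in *Epor*, 86 to 81 in *Alas2*, 31 to 26 in *Rhag* and 73 to 68 in *Slfn14*. *Hemgn* had one 13 to 8 bases before the start, within an annotated exon, and *Trim58* one 247 to 242 bases before it, and neither is shown. The *Gata1* window had no GATA motif, which says only that these letters are not in it, and 3 matches to the KLF1 motif between 71 and 27 bases before the start. CCNCNCCC was found in 5 of the 8 windows, those of *Gata1*, *Alas2*, *Hemgn*, *Slfn14* and *Epor*, against 45.9% of all windows. In *Hemgn* the matches overlap in a single run of G, and in *Alas2* they lie within an annotated exon and are not shown. Those of *Slfn14* lie 166 to 157 bases before the start, outside the stretch printed above. Both motifs were present in 4 of the 8 windows and in 8.19% of all windows.

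Levels of different genes are compared per kb of exon. Wild-type means per kb were 604 normalized counts for *Alas2* and 395 for *Slc4a1*, then 22.8 for *Epor*, 13.0 for *Klf1*, 11.7 for *Rhag*, 6.85 for *Slfn14*, 5.94 for *Gata1*, 4.67 for *Hemgn* and 3.34 for *Trim58*. The genes of heme synthesis and of anion exchange thus stood far above the regulators and the receptor. In the wild-type libraries *Epor* had the highest count per library among the 7 genes, from 34.1 to 54.7 normalized counts, and the smallest relative spread. Its SD was 18.4% of its mean, close to the 14.9% that counting alone gives at this level. For *Rhag* and *Slfn14* the SD was 49.6% and 66.3% of the mean, against 19.1% and 19.9% from counting, so the wild-type hearts differed among themselves by more than the counting error. From *Klf1* to *Trim58*, each gene differed from its neighbour in this order by less than the SD of the higher one.

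**Figure D1:**
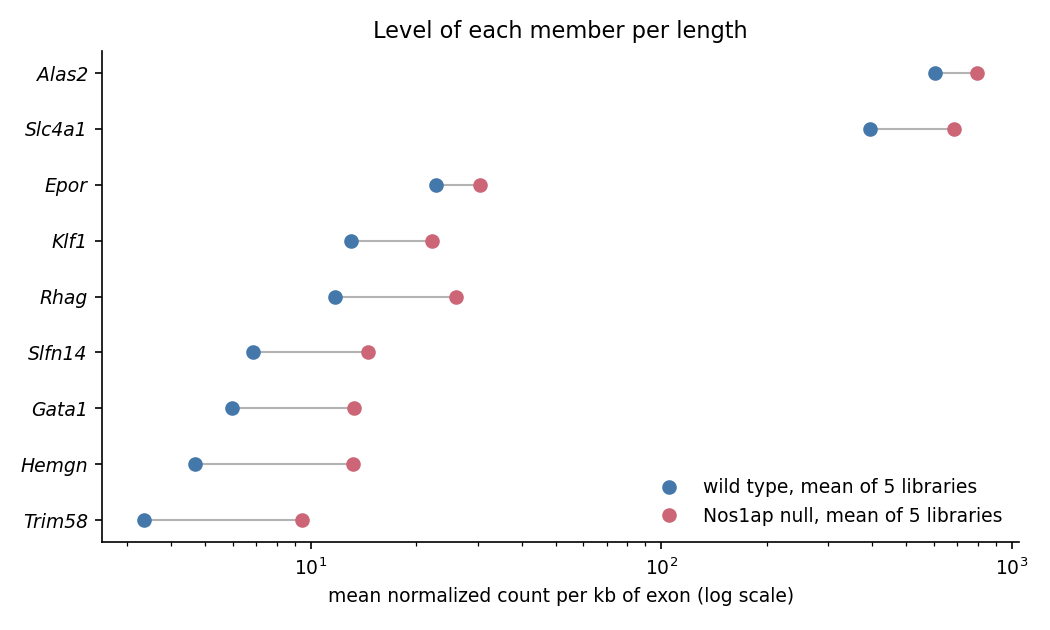
Mean normalized count per kb of exon for each of the 9 genes, on a log axis, with the wild-type mean and the *Nos1ap* null mean as points joined by a line. *Alas2* and *Slc4a1* lie at 395 or higher in both groups and the other 7 genes at 30.4 or lower, and the null point is to the right of the wild-type point for each gene.

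All 9 genes had a higher mean in *Nos1ap* null than in wild type, as their choice implies. The null mean was the higher one for 49.4% of the 14330 genes whose mean reached 10. The median log2 ratio of the 9 genes, with 1 added to each mean, was 1.06, ranging from 0.40 for *Alas2* to 1.42 for *Hemgn*. Over those 14330 genes this median was -0.0013. Among the 7 genes with recovered counts, 0 had all 5 null values above all 5 wild-type values, which 0.416% of the 11311 genes had. Without null library 2, the median log2 ratio of the 7 genes went from 1.11 to 0.12, and 4 of them kept a higher null mean, beside 47.3% of the 11311 genes.

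Of the regulators, *Gata1* encodes the zinc finger factor that directs the erythroid program and lies at chrX:7959260-7978071 on the minus strand. Its normalized counts in wild-type libraries 1 to 5 were 16.5, 9.68, 15.3, 20.6 and 10.3. In null libraries 1 to 5 they were 14.4, 72.4, 18.1, 25.8 and 31.6. Null library 2 is far above the rest, and of the other null libraries 2 lie within the wild-type range and 2 above it. The group means were 14.5 ± 4.55 (SD, n = 5) and 32.5 ± 23.3 (SD, n = 5), a 2.24-fold difference, and without null library 2 the null mean was 22.5 ± 7.70 (SD, n = 4), with a log2 ratio of 0.60. With all libraries the log2 ratio was 1.11, and no other gene kept as large a part of it.

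*Klf1*, at chr8:84901928-84905291 on the plus strand, encodes the factor that activates adult beta-globin and many membrane and heme genes. It had 29.6, 12.6, 23.4, 23.7 and 10.3 normalized counts in the wild-type libraries. The null libraries had 14.4, 92.5, 11.1, 30.1 and 21.8. Apart from the 92.5 of null library 2, the groups cover nearly the same range. The means were 19.9 ± 8.15 and 34.0 ± 33.5 (SD, n = 5 each). With null library 2 left out the null mean was 19.3 ± 8.44 (SD, n = 4), the log2 ratio went from 0.74 to -0.04, and the direction of the difference turned.

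*Hemgn* encodes hemogen, a nuclear protein of hematopoietic cells and a target of GATA1, at chr4:46393989-46413506 on the minus strand. Its wild-type values were 8.70, 7.74, 8.14, 23.7 and 10.3 normalized counts. The null values were 8.10, 102, 4.03, 14.0 and 38.1. Null library 2 was the highest and null library 5 the second highest, while the lowest value of the 10 was also a null library. The null mean of 33.2 ± 40.5 was 2.83-fold the wild-type mean of 11.7 ± 6.78 (SD, n = 5 each), and 1.37-fold without null library 2. The log2 ratio of *Hemgn* was 1.42 with all libraries and 0.42 without this one.

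*Epor*, at chr9:21958897-21963506 on the minus strand, encodes the erythropoietin receptor. The wild-type libraries had 52.2, 41.6, 43.8, 54.7 and 34.1 normalized counts of it. The null libraries had 45.9, 106, 38.3, 50.5 and 62.1. It was the gene with the smallest excess in null library 2, 2.33-fold the wild-type mean, and the other null libraries lay in or just above the wild-type range. The means were 45.3 ± 8.31 and 60.5 ± 26.6 (SD, n = 5 each), and the log2 ratio of 0.41 became 0.12 without null library 2.

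*Rhag*, at chr17:40811126-40840754 on the plus strand, encodes the Rh-associated glycoprotein, a membrane channel that holds the Rh complex together. Its values were 33.1, 14.5, 32.6, 44.4 and 12.4 normalized counts in the wild-type libraries. In the null libraries they were 27.0, 201, 8.07, 24.7 and 43.6. The counting interval of the value in null library 2 (exact Poisson, 95%) was 174 to 231, which lies above all other libraries and covers counting error only. The null mean of 60.9 ± 79.4 (SD, n = 5) became 25.8 ± 14.5 (SD, n = 4) without it, below the wild-type mean of 27.4 ± 13.6 (SD, n = 5), and the log2 ratio went from 1.12 to -0.08.

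*Trim58* encodes a ubiquitin ligase that acts in the late erythroblast during loss of the nucleus, at chr11:58640465-58652404 on the plus strand. It was the least abundant of the genes, with 6.09, 3.87, 10.2, 14.4 and 2.07 normalized counts in wild type. The null libraries had 6.30, 69.4, 4.03, 10.7 and 13.1. The other 4 null libraries thus lay inside the wild-type range, and null library 2 stood 9.46-fold above the wild-type mean, the highest such ratio of the 7 genes. The means were 7.33 ± 5.0 and 20.7 ± 27.4 (SD, n = 5 each), and the log2 ratio of 1.38 became 0.19 without null library 2.

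*Slfn14* encodes a ribosome-associated endoribonuclease of red cells and platelets, at chr11:83275110-83286726 on the minus strand. The wild-type values were 34.8, 7.74, 24.4, 48.5 and 11.4 normalized counts. Those of the null libraries were 14.4, 181, 16.1, 27.9 and 30.5. Of the wild-type libraries 2 exceed all null libraries but null library 2, which alone held 67.0% of the summed null value. The means were 25.4 ± 16.8 and 54.0 ± 71.3 (SD, n = 5 each), and the log2 ratio went from 1.06 to -0.18 without null library 2.

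For *Alas2* and *Slc4a1* the part of single libraries in the difference was not tested, since only the group means could be used. *Alas2*, the first enzyme of heme synthesis in red cells, lies at chrX:150547375-150570638 on the plus strand and had a mean of 1452 normalized counts in wild type and 1917 in null, a 1.32-fold difference. *Apex2* and *Mir3620* are annotated on the opposite strand within the *Alas2* locus, and the counting took the strand into account. *Slc4a1*, which encodes band 3, the anion exchanger that anchors the membrane to its skeleton, lies at chr11:102348824-102366203 on the minus strand. Its mean was 1933 in wild type and 3337 in null, a 1.73-fold difference, close in size to that of *Klf1* (1.70-fold).

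**Figure D2:**
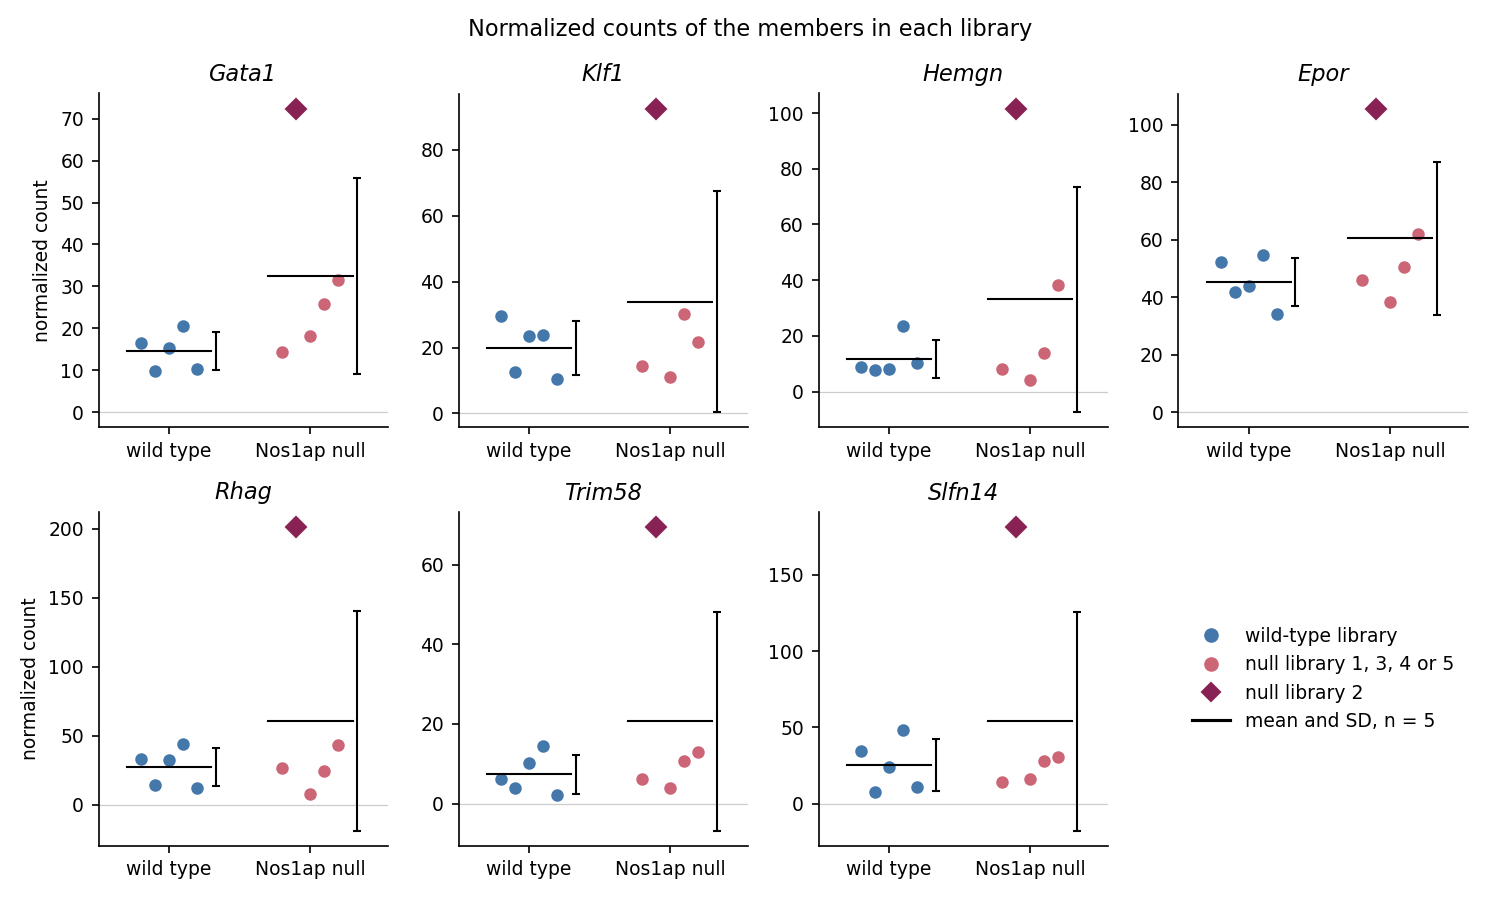
Normalized counts of *Gata1*, *Klf1*, *Hemgn*, *Epor*, *Rhag*, *Trim58* and *Slfn14*, one panel per gene with its own linear axis, for 5 wild-type and 5 *Nos1ap* null libraries as points, with the mean as a line and the SD as a bar. The diamond is null library 2, which is the highest point in every panel, from 69.4 (*Trim58*) to 201 (*Rhag*), while the other 4 null libraries overlap the wild-type libraries.

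The excess of null library 2 differed from gene to gene. Relative to the wild-type mean it was 9.46-fold for *Trim58*, 8.66-fold for *Hemgn*, 7.34-fold for *Rhag*, 7.13-fold for *Slfn14*, 5.0-fold for *Gata1*, 4.64-fold for *Klf1* and 2.33-fold for *Epor*. The value was more than 2 times that of the next highest library for 6 of the 7 genes, the exception being *Epor* at 1.70 times. Of the 11311 genes tested, 43 (0.380%) had such an excess, these 6 included. Since the choice of the genes rests on null means that include this library, this share is a description too. Leaving out any other single library left the log2 ratio of each of the 7 genes above 0. The median of the 7 log2 ratios was lowest with null library 2 left out, at 0.12, and highest with wild-type library 4 left out, at 1.36.

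**Figure D3:**
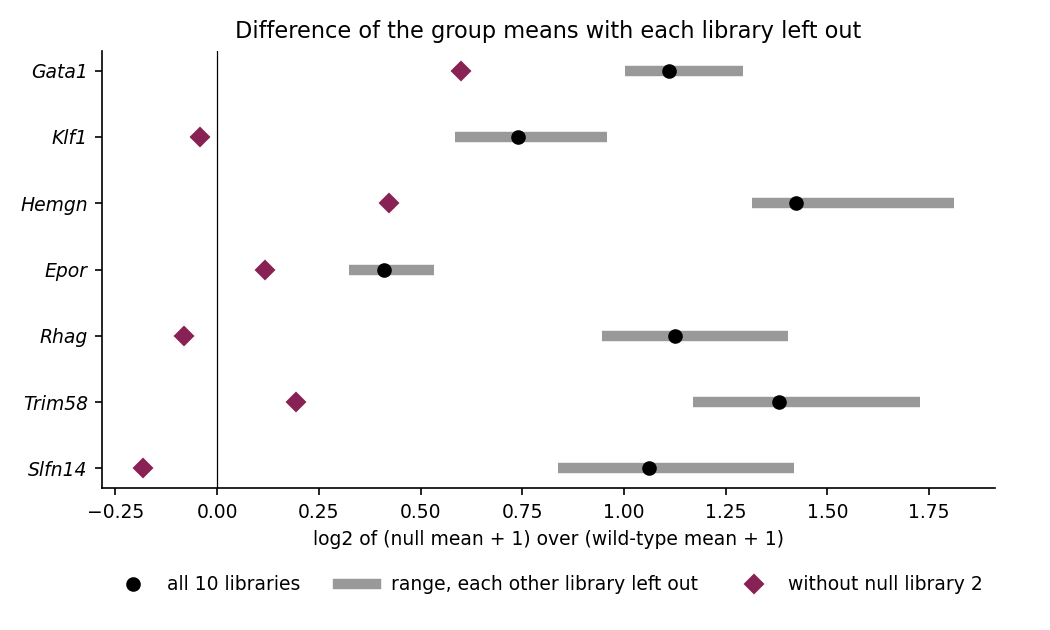
The log2 ratio of the group means (1 added to each) for 7 genes, with all 10 libraries as a black point, the range with each of the other libraries left out as a grey bar, and the value without null library 2 as a diamond. The diamonds lie between -0.18 and 0.60, to the left of the grey bar for every gene, and those of *Klf1*, *Rhag* and *Slfn14* are below 0.

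The other 9 libraries varied too, and in both genotypes. On a score that averages the 7 genes after centring each on its log2 mean, null library 2 stood at 2.29. Null library 5 followed at 0.52 and wild-type library 4 at 0.45, and the lowest were wild-type library 5 at -0.97, wild-type library 2 at -0.90 and null library 3 at -0.90. Wild-type library 2 was among the 3 lowest libraries for 7 of the 7 genes. Among the 9 libraries without null library 2, the 21 pairs of these genes had a median Pearson correlation of 0.77 on the log2 scale (lowest 0.48, highest 0.86). These values describe 9 libraries of 2 genotypes, in which the genes share depth and tissue.

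The genes with the pattern most like these were taken as the 10 protein-coding genes outside the group with the highest Pearson correlation to the score over 10 libraries, out of 10310 tested. They were *Ypel4*, *Csf2rb*, *Acp5*, *Trappc9*, *Grap2*, *Mxd1*, *Gfi1b*, *Ncf4*, *Ccdc92b* and *Pdzk1ip1*, with r from 0.97 to 0.99. This measure rests largely on null library 2, and over the 9 other libraries r was 0.90 to 0.97. As the genes were ranked on all 10 libraries, these 9 among them, this range too is raised by their choice. *Gfi1b* encodes a transcriptional repressor needed for red cells and megakaryocytes, and *Csf2rb* the shared beta chain of several cytokine receptors. *Acp5*, an acid phosphatase gene, had 325 normalized counts in null library 2, 23.2 to 76.4 in wild type and 28.2 to 69.7 in the other null libraries. *Ccdc92b* had 588 in null library 2, against 43.6 to 200.2 in wild type and 67.5 to 131 in the other null libraries. *Trappc9* and *Mxd1* varied over a narrow range, with null library 2 at 1.19-fold and 1.52-fold the wild-type mean.

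The wider erythroid program was taken from 6 lists of 86 genes, the 9 genes above not among them, for transcription factors, heme and iron, membrane and skeleton, globins, erythropoietin signalling, and maturation and metabolic enzymes. Of these 86 genes, 74 had a higher mean in *Nos1ap* null, and the median log2 ratio was 0.16. Counts were recovered for 42 of them, of which 33 had a higher null mean with all libraries (median log2 ratio 0.086) and 21 without null library 2 (median -0.0071). Of the 42 genes, 37 reached the mean of 10 required for testing. In the limma fit across all genes, 0 of the 37 rose or fell at an adjusted *P* under 0.05, and 0 had an unadjusted *P* under 0.05, while the voom form of limma also called 0, with 3 unadjusted. The same fit called 3 of the 11311 genes (0.0265%), namely *Nos1ap*, *Mt2*, a metallothionein gene, and *Gm7694*, which is annotated within *Nos1ap* on the same strand and may share its reads. The 44 genes without recovered counts are no random part of the lists, since 41 of them had a higher null mean, against 33 of the 42 with recovered counts.

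Among the transcription factors, the value in null library 2 ranged from 0.84-fold (*Zbtb7a*) to 5.16-fold the wild-type mean. Null library 2 was the highest library for 5 of the 10 factors with recovered counts. Of these 10, 5 had a higher null mean with all libraries (median log2 ratio 0.0074) and 4 without null library 2 (median -0.045). *Nfe2*, a bZIP factor of red cells and megakaryocytes, had the highest ratio, and *Gfi1b* was at 4.31-fold. The ratio was near 1 for *Lmo2* (1.08) and *Gata2* (1.02), which blood shares with endothelium, and for *Sox6* (0.98), *Bcl11a* (0.92) and *Cbfa2t3* (0.90). The most abundant genes of this list, *Zfpm1* (1498 in wild type and 1551 in null), *Klf3* (1107 and 1164) and *Foxo3* (832 and 857), had log2 ratios of 0.05, 0.07 and 0.04.

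Of the 18 genes of the red cell membrane and its skeleton, 17 had a higher null mean, with a median log2 ratio of 0.34. *Kel* and *Ermap*, which encode blood group proteins, had log2 ratios of 1.10 and 1.08, and the spectrin gene *Sptb* 0.35. The 3 most abundant were *Tmod1*, *Epb41* and *Sptb*, of which *Tmod1*, a tropomodulin gene that heart muscle uses as well, differed by 0.03. Null library 2 was the highest for 6 of the 8 genes with recovered counts. Among these, *Rhd*, whose product sits beside RHAG in the Rh complex, was at 5.27-fold its wild-type mean in null library 2, and *Dmtn* at 2.70-fold. Without this library the median log2 ratio of the 8 genes went from 0.27 to -0.08.

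For heme and iron genes 15 of 19 null means were higher, with a median log2 ratio of 0.08. *Fech* (0.36) and *Slc25a37* (0.46), which act at the last step of heme synthesis and in mitochondrial iron import, had larger log2 ratios than *Slc25a39* (0.01). Null library 2 was the highest for 6 of the 9 genes with recovered counts, but only modestly so, with a median of 1.23-fold the wild-type mean. Without it, 2 of these 9 genes had a higher null mean, where 7 had one before, and their median log2 ratio turned from 0.033 to -0.031. Of the 16 maturation and enzyme genes all 16 had a higher null mean, the most abundant being *Prdx2* (log2 ratio 0.10), *Bnip3l* (0.12) and *Gpx1* (0.27). Null library 2 was the highest for 4 of the 7 with recovered counts, and *Tspo2* was at 4.04-fold its wild-type mean there. The median log2 ratio of these 7 genes went from 0.60 to 0.059 without it, and 6 of them kept a higher null mean. Globins have group means alone, and 6 of the 7 in the table were higher in null. The embryonic chains *Hba-x* and *Hbb-bh1* had log2 ratios of 0.97 and 1.23, *Hbb-y* 0.73, and *Hba-a1* and *Hba-a2*, nearly identical copies whose reads cannot be firmly told apart, 0.44 and 0.38. The ratio was -0.17 for *Hbb-bs* and 0.20 for *Hbb-bt*, the adult beta chains, and how reads were divided between them was not tested.

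Of the 11 genes of erythropoietin signalling in the table, which include the ligand and receptor of the KIT pathway, 10 had a higher null mean, with a median log2 ratio of 0.11. Null library 2 was the highest library for 1 of the 8 with recovered counts, *Stat5a*, at 1.59-fold the wild-type mean. The median log2 ratio of these 8 genes was 0.089 both with and without this library, with 7 of them higher in null each time. The value in null library 2 relative to the wild-type mean was 1.03 for *Jak2*, the kinase bound to the receptor, 1.11 for *Cish*, 1.28 for *Socs3* and 0.82 for *Socs2*, all feedback inhibitors of the pathway. The most abundant genes of the list, *Stat5b* (log2 ratio 0.05), *Bcl2l1* (0.23) and *Pim1* (0.33), have no recovered null counts.

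Markers of the other cell types that blood or the dissected tissue could hold were set beside these results. Platelet genes were also high in null library 2, to a lesser degree. All 12 had a higher null mean, null library 2 was the highest for 9 of the 11 with recovered counts, and the median value there was 1.75-fold the wild-type mean, with *Pf4* at 1.71-fold, *Gp1ba* at 1.72-fold and *Tubb1* at 2.83-fold. Without null library 2, 9 of these 11 genes still had a higher null mean, and their median log2 ratio went from 0.36 to 0.19. Their summed level was 542 in null library 2, 214 to 388 in wild type and 245 to 448 in the other null libraries. Limma called 0 of the 10 platelet genes tested, with 1 unadjusted *P* under 0.05. *Gata1*, *Nfe2* and *Gfi1b* are active in the platelet lineage as well, and the part of platelets in the values of these genes was not tested.

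Macrophage, granulocyte and liver markers were not high in null library 2 as a group. The 9 macrophage genes, *Csf1r*, *Mrc1* and *Cx3cr1* the most abundant, summed to 1295 in null library 2, against 1145 to 1384 in wild type and 1136 to 1310 in the other null libraries. The 9 granulocyte genes, *Mpo*, *Prtn3* and *S100a9* the most abundant, summed to 5.03 in null library 2, the lowest of the 10 libraries, and *Elane*, *Ngp*, *Ltf* and *Camp* had 0 counts there, *Elane* and *Camp* also in the other null libraries. All 9 had a lower null mean, with a median log2 ratio of -0.69, and of -0.60 without null library 2. Their sum was 19.7 to 65.2 in wild type and 11.7 to 27.2 in the other null libraries. Of liver genes, which would mark fetal liver tissue with its erythroblasts, *Alb* had 1 normalized count and *Afp* 3.02 in null library 2. For *Alb* the wild-type libraries held 0 to 15.5 and the other null libraries 0.90 to 6.44, while *Afp* lay between 2.04 and 49.4 in wild type and between 4.03 and 14.2 in the other null libraries. The most abundant liver list genes, *Trf*, *Afp* and *Ahsg*, were at 1.27-fold, 0.14-fold and 0.88-fold the wild-type mean in this library. For blood progenitors, *Runx1* was at 1.21-fold, and the group means of *Cd34* (log2 ratio -0.14) and *Mecom* (0.06) lay close together. The 3 most abundant heart muscle genes had log2 ratios of 0.02 (*Myh7*), 0.04 (*Actc1*) and 0.08 (*Myh6*), and the endothelial genes *Cdh5*, *Tie1* and *Pecam1* of 0.03, 0.06 and -0.03. The endothelial genes with recovered counts, *Erg* and *Emcn*, summed to 943 in null library 2, the lowest of the 10 libraries, against 982 to 1104 in wild type and 1023 to 1092 in the other null libraries. Limma called 0 of the 9 macrophage, 3 progenitor, 3 liver and 2 endothelial genes tested, with 0 unadjusted *P* values under 0.05, and 0 of the granulocyte genes reached the mean required.

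**Figure D4:**
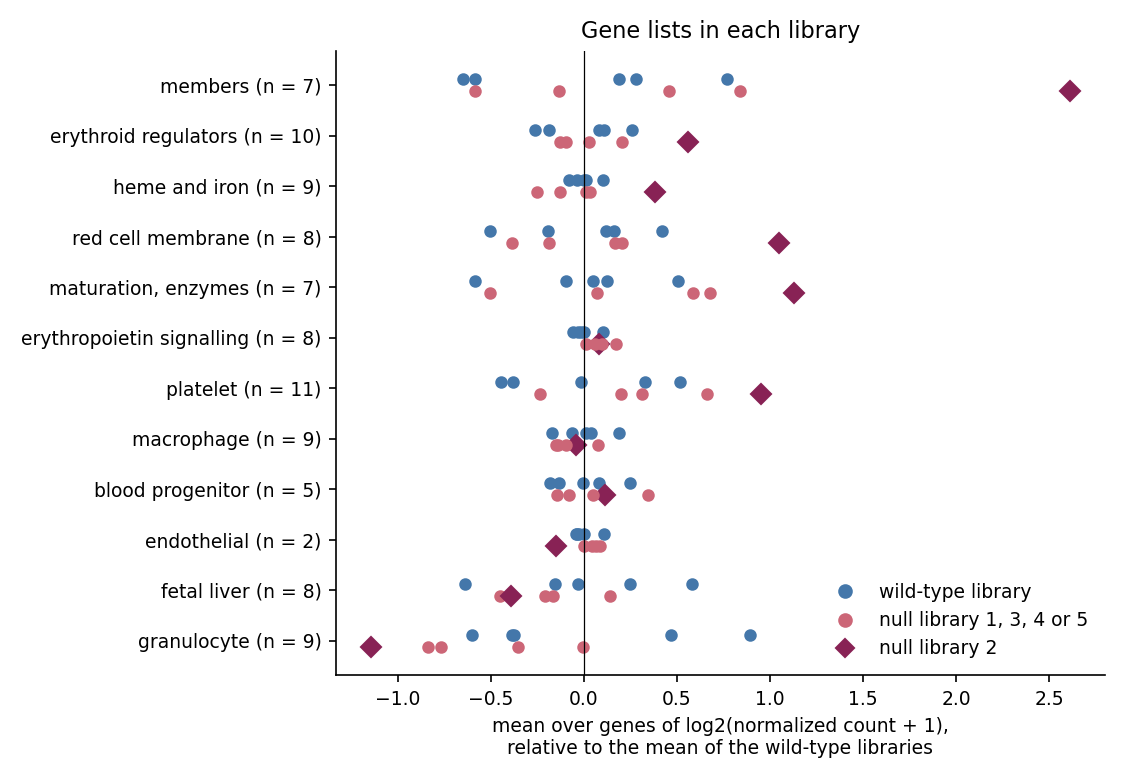
Mean over the genes of each list of log2 of the normalized count plus 1, relative to the mean of the wild-type libraries, for each of the 10 libraries, over genes with recovered counts (n in brackets), with null library 2 as a diamond. The diamond lies at 2.61 for the 7 genes described here and above all other libraries also for red cell membrane (1.05), maturation (1.13), platelet (0.95), regulator (0.56) and heme lists (0.38), but among the other libraries for macrophage (-0.04) and liver (-0.39) lists and below them for granulocyte (-1.14) and endothelial genes (-0.15).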

How the data were processed

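PolyA RNA-seq of E13.5 hearts was grouped by the genotype in the sample labels (5 wild type, 5 *Nos1ap* null). The authors' processing notes name FastQC 0.11.5, Trimmomatic 0.36, STAR, RSEM 1.2.31 and DESeq 1.24.0, with GRCm38 and GENCODE M10. The deposited signal values are group means of counts that the authors divided by size factors, counted with the strand taken into account. The table also holds the authors' fold changes and p-values, which were not used. Of the columns with sample values, 0 were left unmatched.

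For means under 1000, sets of 5 whole counts matching all 15 digits were sought by lattice reduction (Python 3.11.15, numba 0.67.0). Below 200 all sets were searched, and where only 1 existed it was taken. Otherwise the set nearest to equal normalized counts was taken, if at most 0.01 sets as near were expected by chance. Counts were recovered in both groups for 20052 of 23195 genes. The search was tested on simulated data. Differences were tested, for genes whose mean reached 10, in limma 3.58.1 (R 4.3.3) on log2 of the normalized count plus 1, with trended and robust moderation and Benjamini-Hochberg adjustment, threshold 0.05. Since the deposited values are group means, limma on the log scale was the main test, and its voom form on the recovered counts an alternative.

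The 9 genes and all lists were chosen with earlier results of these data known. Genes named are these 9, *Nos1ap*, the 3 most abundant genes of each list and any past the threshold, and the 10 genes nearest in pattern. Other list genes were named after their values were seen. Nothing in the labels says that the embryos come from separate litters, so *P* values measure the spread between these samples. Exon lengths and coordinates are from GENCODE M21 (GRCm38). Alternatives changed the pseudocount, filter, scaling, form of limma and libraries. Serpina1a, Ahsp and Epo, which the lists also name, were not analysed here.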

Additional observations from a re-analysis of the deposited data

Results flagged for a closer look

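Of 110 groups of 5 libraries, those of 55 named genes with recovered counts in each genotype, 23 held a library whose distance from the other 4 passed Dixon's 95% limit. Chance gives this in about 1 group of 20, but these genes vary together and many were chosen for their values in these libraries, so the tally is a description and is not to be read against that share. In 15 of the groups the library was null library 2, standing high. Among the erythroid genes described above these were *Klf1* (92.5 normalized counts), *Rhag* (201), *Trim58* (69.4) and *Slfn14* (181). Among the genes of like pattern they were *Csf2rb* (143), *Acp5* (325), *Grap2* (452), *Gfi1b* (89.5), *Ncf4* (50.3) and *Ccdc92b* (588), and among the other list genes *Nfe2* (339.9), *Dmtn* (372), *Rhd* (258), *Tspo2* (103) and *Stat5a* (201). Wild-type library 4 was high for *Hemgn* (23.7 normalized counts), *Socs2* (509), *Socs3* (119) and *Mt2* (55.7), and wild-type library 2 for *Camp* (2.90, with 0 in the other wild-type libraries). *Cish* was low in wild-type library 5 (182). Null library 5 was high for *Mt2* (107) and low for *Runx1* (25.0).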

How the results depend on the processing

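The median log2 ratio of the 9 genes (1.06) and the count of 9 higher null means changed by less than the spread between libraries with a pseudocount of 0.5, with none, or with the groups rescaled by 0.0015. Across libraries left out in turn, the median over the 7 genes with recovered counts ranged from 0.12 to 1.36, the count with a higher null mean from 4 to 7, and the count of genes whose groups do not overlap stayed at 0. The low ends are those without null library 2, where the log2 ratio reversed for 3 genes. With libraries left out in turn it ranged from -0.042 to 0.96 for *Klf1*, from -0.081 to 1.40 for *Rhag* and from -0.18 to 1.42 for *Slfn14*. These are 3 of 70 values with a library left out, and 0 of 27 values under other settings reversed. Raw recovered counts also put null library 2 highest for 7 genes. The limma fit called 3 genes, and 3 without each library, and 0 genes of the erythroid lists in each case. Other settings called 2 to 4 genes. The median over 7 genes was chosen after seeing the data. No paired analysis was possible because the group means carry no replicate numbers. Depth limits *Trim58* and *Hemgn* most, with single values down to 2.07 and 4.03 normalized counts.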
